A study of Mus musculus with 4 samples.

Results

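The transcripts described here are 10 genes of the enzymatic defence against superoxide and peroxides, the superoxide dismutases Sod1 and Sod2, the glutathione peroxidases Gpx1 and Gpx4, and the peroxiredoxins Prdx1 to Prdx6. They were chosen by gene symbol, and all 10 are present once each among the 24138 rows of the deposited expression table. Bulk RNA sequencing was carried out on 4 samples of poly(A)-enriched liver RNA from male C57BL/6J mice aged 18 weeks, a strain that carries a deletion within the mitochondrial transhydrogenase gene Nnt. Every sample is labelled with the FAT-MASH diet, which gives rise to metabolic dysfunction-associated steatohepatitis (MASH), and with treatment by resolvin D1 (RvD1), a lipid mediator made from docosahexaenoic acid. The series asks how RvD1 acts in this liver disease. All 4 libraries belong to 1 group and are called livers 1 to 4 after the numbers in their titles, and untreated or diet-only livers were not analysed here, so the values describe levels and their spread between samples and not an effect of diet or of RvD1. The titles number the livers, but nothing in the labels says outright that they came from separate animals. Each SD therefore measures only the spread between these samples, which may be technical, and each p-value concerns only these samples.

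Superoxide dismutases convert superoxide to hydrogen peroxide, with a copper and zinc enzyme, Sod1, mainly in the cytosol and a manganese enzyme, Sod2, in the mitochondrial matrix. Glutathione peroxidases then reduce peroxides with glutathione, and most peroxiredoxins do so with thioredoxin, using a reactive cysteine. The liver forms much peroxide in peroxisomal fatty acid oxidation, in mitochondria and in the endoplasmic reticulum, and lipid peroxides are a feature of fatty liver disease.

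Levels are in FPKM, fragments scaled by transcript length and by library size, a scale per length on which genes can be set side by side. Between 18.8 and 20.1 M fragments (M, mega) per library were estimated from the lowest values. Only values inside a preset window were used, which by itself holds the estimate near this depth, so depth was assumed and not measured. If that depth holds, each member rested on roughly 984 to 47022 fragments per liver, with a counting error of at most about 3.19%. Summed over all rows, liver 4 had 570681 FPKM and livers 1 to 3 had 516816 to 524394 FPKM. Of 8 hepatocyte markers, 7 were at 1 FPKM or more on average, and Alb, the gene of serum albumin, was listed at 0 in all 4 livers. Their summed level was 28507 to 29366 FPKM in livers 1 to 3 and 34735 FPKM in liver 4. Summed macrophage markers (5 of 6 at 1 FPKM or more) ranged from 76.4 to 119 FPKM, endothelial markers (5 of 5) from 38.9 to 50.01 FPKM, stellate cell markers (6 of 6) from 166 to 259 FPKM and cholangiocyte markers (4 of 4) from 17.6 to 21.9 FPKM. Erythroid markers (3 of 4 table rows expressed) summed to 427 to 1076 FPKM. Neutrophil markers (2 of 3) summed to 7.61 to 17.7 FPKM and lymphocyte markers (2 of 4) to 2.34 to 3.57 FPKM. Acute phase genes summed to 1812 to 2833 FPKM in livers 1, 3 and 4 and to 8788 FPKM in liver 2. In bulk tissue, fewer cells of a type and less RNA per cell cannot be told apart.

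Both glutathione peroxidases among the members are selenoproteins, in which an in-frame stop codon is read as selenocysteine, the residue that reacts with peroxide. The coding sequence around that codon is shown because it is the feature that sets Gpx1 and Gpx4 apart from the other 8 members. Each line gives the 63 bases around the codon in the GENCODE vM21 transcript (build GRCm38, plus strand), 5′ to 3′, with the selenocysteine codon in capitals.
Gpx1 (chr9:108339421-108339483): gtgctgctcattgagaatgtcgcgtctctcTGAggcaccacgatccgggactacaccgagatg
Gpx4 (chr10:80054707-80054769): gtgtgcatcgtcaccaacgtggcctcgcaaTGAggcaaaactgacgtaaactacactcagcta
The codon is number 47 of the Gpx1 reading frame, in exon 1 of 2, and number 73 of the Gpx4 reading frame shown, in exon 3 of 7. GENCODE annotates such a codon in 24 mouse genes. Of these, 9 are among the members and the lists of related genes.

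All 10 members were well expressed and lay between rank 29 and rank 1221 of the 10541 genes that averaged 1 FPKM or more, called expressed here. Their joint share of all summed FPKM was 0.976%, 1.06%, 0.927% and 1.11% from liver 1 to liver 4. Gpx1 and Sod1 alone held 60.5 ± 1.43% of the members' summed FPKM (SD, n = 4). The lowest members, Sod2 and Prdx4, still exceeded at least 88.4% of expressed genes in mean level.

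**Figure D1:**
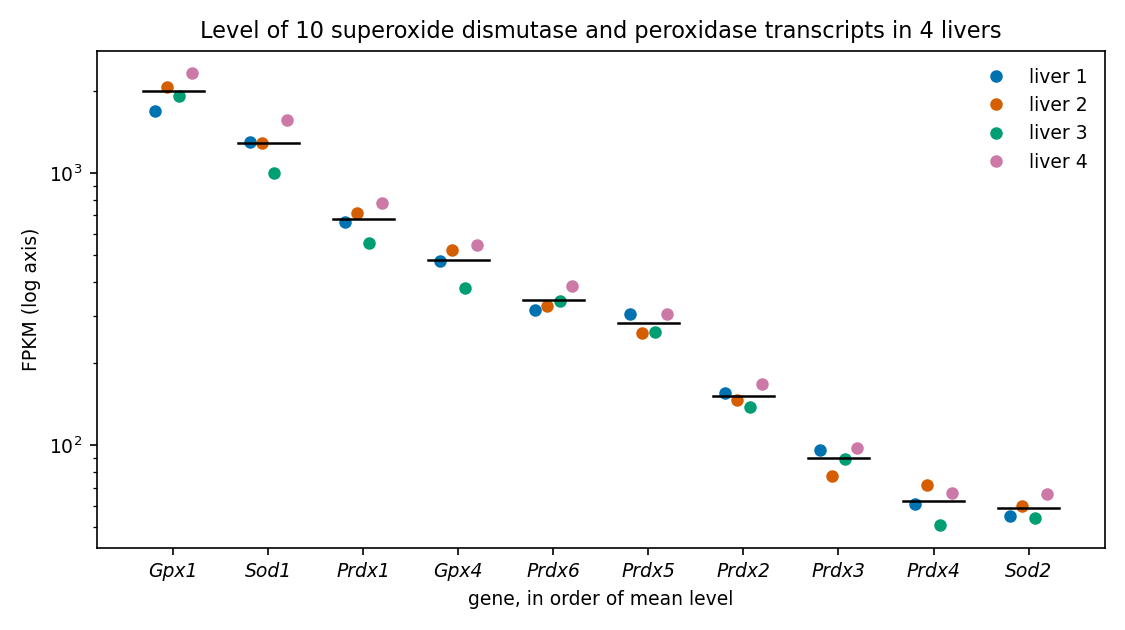
FPKM on a log axis for each of the 10 genes, in order of mean level, with 1 coloured point per liver and a black bar at the mean of 4 livers. Gpx1 sits at 1691 to 2329 FPKM and Sod2 at 54.1 to 66.1 FPKM, and the points of a gene lie close together relative to the distances between most genes.

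Sod1, the cytosolic dismutase (chromosome 16, 90220742 to 90226324), was at 1299, 1296, 1001 and 1576 FPKM in livers 1 to 4, with a mean of 1293 ± 235 FPKM (SD, n = 4). Livers 1 and 2 were nearly equal, liver 3 was the lowest and liver 4 the highest, and at 1.57-fold this was the widest range among the members. Sod2, the mitochondrial dismutase (chromosome 17, 13007839 to 13018119), was at 54.96, 59.8, 54.1 and 66.1 FPKM, with a mean of 58.8 ± 5.52 FPKM (SD, n = 4). Sod1 exceeded Sod2 23.6-fold, 21.7-fold, 18.5-fold and 23.8-fold in livers 1 to 4, a mean ratio of 21.9 ± 2.47 (SD, n = 4) with the smallest value in liver 3. Of the 2 dismutase partners outside the members, Ccs, the copper chaperone that loads Sod1, had 173 ± 20.9 FPKM, and Sod3, the extracellular dismutase, had 36.0 ± 4.203 FPKM (each SD, n = 4).

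Gpx1, a glutathione peroxidase of cytosol and mitochondria (chromosome 9, 108339080 to 108340344), was the most abundant member, at 1691, 2071, 1922 and 2329 FPKM in livers 1 to 4. Its mean was 2003 ± 267 FPKM (SD, n = 4), with liver 1 the lowest and liver 4 the highest. Gpx4 reduces phospholipid hydroperoxides within membranes and restrains ferroptosis, a form of cell death driven by lipid peroxidation. It was at 477, 522, 379 and 546 FPKM, with a mean of 481 ± 73.7 FPKM (SD, n = 4), and liver 3 stood lowest. The span deposited for Gpx4 (chromosome 10, 79697305 to 80369637) is 672 kb long and overlaps the spans of 48 other rows, whereas the annotated gene runs from 80047166 to 80056439. Gpx1 exceeded Gpx4 3.55-fold, 3.97-fold, 5.07-fold and 4.26-fold in livers 1 to 4. The ratio was highest in liver 3, where Gpx4 was at its lowest and Gpx1 was not.

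Prdx1, the main cytosolic peroxiredoxin (chromosome 4, 116684965 to 116700000), was at 663, 717, 555 and 781 FPKM in livers 1 to 4, with a mean of 679 ± 95.3 FPKM (SD, n = 4). As for Sod1 and Gpx4, liver 3 was the lowest and liver 4 the highest. Prdx2, a cytosolic enzyme that is abundant in red blood cells (chromosome 8, 84969648 to 84974313), was at 155, 146, 138 and 169 FPKM, with a mean of 152 ± 13.0 FPKM (SD, n = 4). It had the smallest SD of the members on the log2 scale, while its range of 1.22-fold was wider than the 1.18-fold of Prdx5. The more abundant of the 2 deposited rows of Hba-a1, a haemoglobin gene, was at 814, 661, 308 and 535 FPKM in the same livers, lowest in liver 3. Alas2, the erythroid enzyme of haem synthesis, was at 55.8, 43.8, 64.0 and 56.96 FPKM, highest in liver 3. The part of blood in the Prdx2 value was not tested.

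Prdx3 and Prdx5 reduce peroxides in mitochondria, and Prdx5 is also found in peroxisomes and cytosol. Prdx3 (chromosome 19, 60864066 to 60874538) was at 96.1, 76.9, 88.8 and 97.8 FPKM in livers 1 to 4, with a mean of 89.9 ± 9.49 FPKM (SD, n = 4). Prdx5 (chromosome 19, 6906819 to 6909645) was at 305, 258, 262 and 303 FPKM, with a mean of 282 ± 25.6 FPKM (SD, n = 4). Both were lowest in liver 2, and for Prdx5 livers 2 and 3 were close together, as were livers 1 and 4. Prdx4, the peroxiredoxin of the endoplasmic reticulum (chromosome X, 155323920 to 155338454), was at 61.1, 71.8, 50.9 and 66.9 FPKM, with a mean of 62.7 ± 8.99 FPKM (SD, n = 4). It was the only member with its highest value in liver 2. Prdx6, a 1-Cys peroxiredoxin that uses glutathione and also has phospholipase activity (chromosome 1, 161240112 to 161251210), was at 314, 326, 338 and 386 FPKM, with a mean of 341 ± 31.4 FPKM (SD, n = 4). Livers 1 to 3 lay close together and liver 4 above them.

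The make-up of the peroxiredoxin transcripts was much the same in each liver. Prdx1 gave 41.6%, 44.9%, 38.8% and 43.3% of the summed FPKM of Prdx1 to Prdx6 in livers 1 to 4, a mean of 42.1 ± 2.63% (SD, n = 4). Prdx6 followed with 21.3 ± 1.69% and Prdx5 with 17.6 ± 1.34%, then Prdx2 with 9.48 ± 0.268%, Prdx3 with 5.62 ± 0.625% and Prdx4 with 3.90 ± 0.417% (each SD, n = 4). Such shares, and ratios within a library, do not depend on the scaling between libraries. The ratio of mitochondrial Prdx3 to cytosolic Prdx1 varied more, at 0.145, 0.107, 0.160 and 0.1253 in livers 1 to 4, a 1.49-fold range with its lowest value in liver 2. The ratio of Prdx4 to Prdx1 was 0.0924 ± 0.00593 (SD, n = 4), with a 1.17-fold range.

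**Figure D2:**
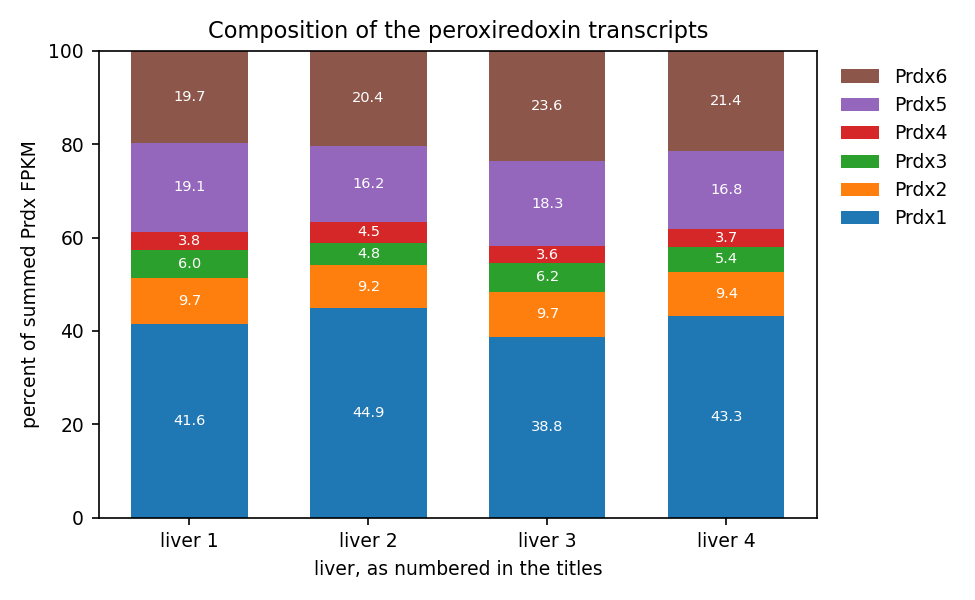
Stacked bars of the share of each peroxiredoxin in the summed FPKM of Prdx1 to Prdx6, in percent, with 1 bar per liver. Prdx1 takes 38.8% to 44.9% and Prdx4 3.55% to 4.498%, and the order of the 6 genes is the same in all 4 bars.

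By mean level the order was Gpx1, Sod1, Prdx1, Gpx4, Prdx6, Prdx5, Prdx2, Prdx3, Prdx4 and Sod2. In 8 of the 9 neighbouring pairs the higher gene was higher in all 4 livers, and in 7 pairs the values of the neighbours did not overlap. Prdx4 and Sod2 could not be placed, since Prdx4 was higher in 3 of 4 livers and the mean paired difference of 0.09 on the log2 scale was below its SD of 0.15 (n = 4). Gpx4 and Prdx6 overlapped in range, although Gpx4 was higher within each liver, 1.12-fold to 1.60-fold. Prdx6 and Prdx5 were only 1.03-fold apart in liver 1 and up to 1.29-fold apart elsewhere. The tightest neighbours were Prdx1 and Gpx4, with a paired difference of 0.50 ± 0.04 on the log2 scale (SD, n = 4), from 1.37-fold to 1.46-fold. An exact two-sided sign-flip permutation test over 4 livers cannot reach 0.05. The 8 pairs with a constant order had the smallest p it allows (adjusted p = 0.141 over 9 pairs, exact permutation test), and Prdx4 and Sod2 had an exact permutation p of 0.375. The pairs and their order were taken from these same values, so the test is no independent support for the order. The p-values concern only these 4 libraries, for which the labels give numbers and no account of cages or litters. They do not measure spread, since every pair with a constant order had the same p whatever its SD.

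The spread of the members between livers was like that of other genes. On the scale of log2(FPKM + 1) the SD between livers ran from 0.12 for Prdx2 to 0.27 for Sod1 with a median of 0.17, beside a median of 0.16 over all 10541 expressed genes. The highest liver was under 1.5 times the lowest for 9 of 10 members, and for 71.6% of all expressed genes and 85.6% of the 1407 genes of at least 50 FPKM, the class that holds all members. Sod1 was the exception on the deposited scale. The count was 10 of 10 with each liver rescaled to the same sum or by genes of at least 50 FPKM. The shares of genes averaging 1 or more on those scales were 66.5% and 69.7%. For 0 of 10 members was a single liver apart from the others by Dixon's ratio, the gap of the extreme liver divided by the whole range, beside 5.46% of all expressed genes. The largest ratio among the members, 0.643 for Prdx6, was below the 95% critical value for 4 samples.

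**Figure D3:**
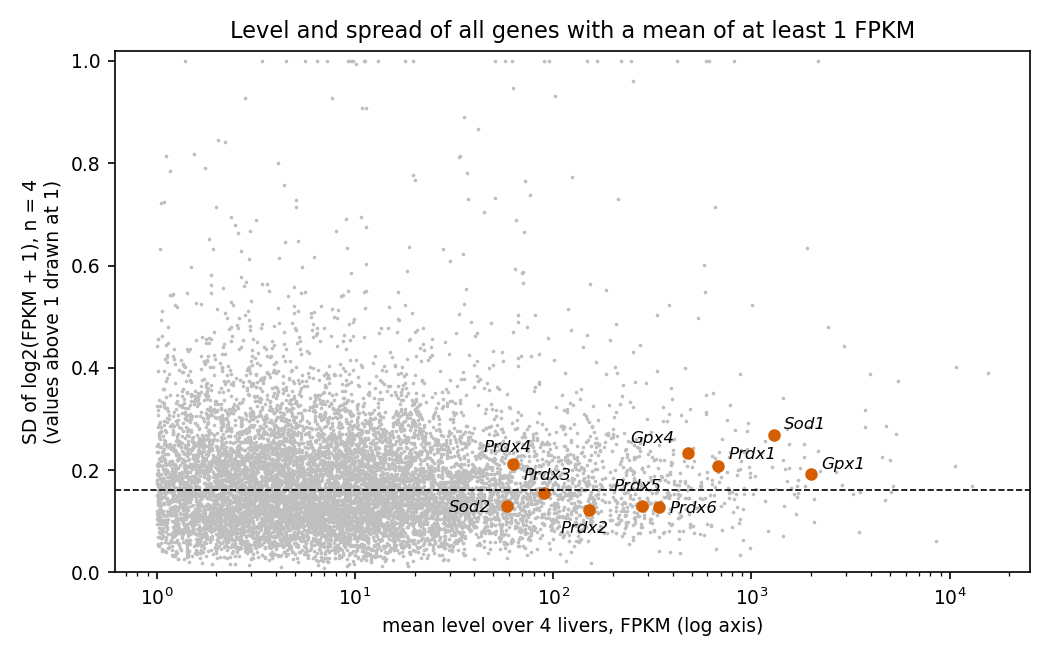
SD of log2(FPKM + 1) over 4 livers against mean FPKM on a log axis, for all 10541 expressed genes (grey) and the 10 members (orange); SDs above 1 are drawn at 1, and the dashed line is the median of all genes, 0.16. The members lie among the abundant genes, at SDs of 0.12 to 0.27 on both sides of the line.

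On the deposited scale, the members were high in liver 4 and low in liver 3. On the log2 scale, all 10 members exceeded their own means in liver 4 (median deviation 0.18) and all 10 fell short of them in liver 3 (median deviation -0.12). All genes of at least 50 FPKM moved the same way to a smaller extent, with medians of 0.12 in liver 4, where 84.2% were above their mean, and -0.06 in liver 3, where 36.2% were. Liver 4 had the highest value for 8 of 10 members, beside 33.3% of all expressed genes and 53.0% of those of at least 50 FPKM. Liver 3 had the lowest value for 6 of 10 members, beside 31.4% and 37.8%. After rescaling each liver so that genes of at least 50 FPKM had a median ratio of 1, the number highest in liver 4 fell to 3 of 10 (17.7% of genes of that level), and 5 of 10 were lowest in liver 3 (29.9%). The members' medians were then 0.02, 0.06, -0.06 and 0.05 in livers 1 to 4, so that liver 2 and not liver 4 had the highest. The summed macrophage markers, led by Cd5l, were also lowest in liver 3 (76.4 FPKM) and highest in liver 4 (119 FPKM), with 85.1 and 109.8 FPKM in livers 1 and 2. The median deviation of the expressed macrophage markers was -0.13, 0.20, -0.26 and 0.18 in livers 1 to 4, highest in liver 2, where Adgre1, Csf1r and Marco had their highest values, and Csf1r was lowest in liver 1. The summed stellate cell markers, most of which was Dcn, were lowest in liver 3 (166 FPKM), while the median of these markers was lowest in liver 4 (-0.22, beside -0.12 in liver 3), where Lrat, Des and Pdgfrb were lowest. The erythroid sum was lowest in liver 3 (427 FPKM) through the rows of Hba-a1, with Alas2 highest there. The hepatocyte sum was highest in liver 4, as was the median of these markers (0.18), while Tat was lowest there. Acute phase genes were also lowest in liver 3 (1812 FPKM, median -1.40) and highest in liver 2 (8788 FPKM, median 2.27). The part of these cell types and of the acute phase in the members' pattern was not tested.

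**Figure D4:**
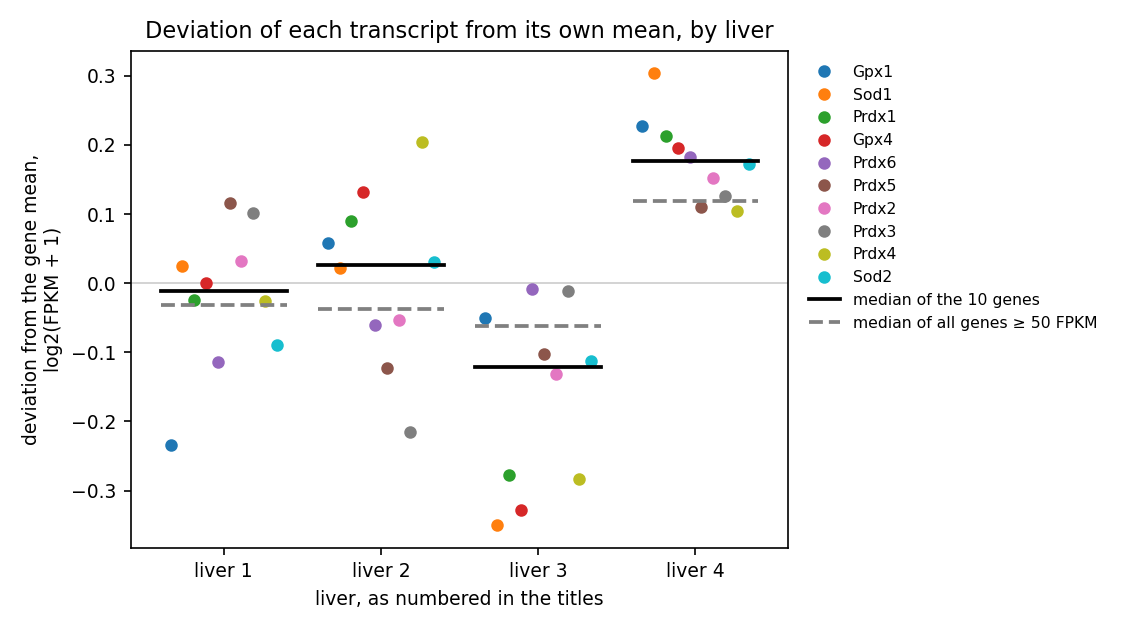
Deviation of log2(FPKM + 1) from each gene's own mean over 4 livers, by liver, with 1 coloured point per gene, a black bar at the median of the 10 genes and a dashed grey bar at the median of all genes of at least 50 FPKM. All points lie below 0 in liver 3 and above 0 in liver 4, and the points of Sod1, Gpx4, Prdx4 and Prdx1 form the low end of liver 3 at -0.35 to -0.28.

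The low values of liver 3 were concentrated in 4 members. Sod1 deviated by -0.35 there, Gpx4 by -0.33, Prdx4 by -0.28 and Prdx1 by -0.28, while the other 6 members deviated by -0.13 to -0.01. The principal transcripts of these 4 genes, of 641 to 990 bases, are the shortest among the members. Genes with principal transcripts under 1000 bases and at least 50 FPKM (n = 314) had a median of -0.09 in liver 3, the shorter (n = 516) and longer (n = 439) of the 2 classes from 1000 to under 4000 bases -0.06 and -0.05, and genes of 4000 bases or more (n = 89) -0.04. In liver 4 the medians of these genes of at least 50 FPKM were 0.11, 0.13, 0.12 and 0.08 in the same order of length. Over expressed genes of any level the medians in that order were 0.09, 0.07, 0.04 and 0.02 in liver 4. In liver 3 they were -0.08, -0.03, -0.003 and 0.005. The part of transcript length in the members' pattern was not tested.

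The promoters of Sod1 and Prdx1 are shown because these are the most abundant dismutase and peroxiredoxin and both followed the pattern of a low liver 3 and a high liver 4. Each line gives the 250 bases before the RefSeq start (build GRCm38.p6, plus strand), 5′ to 3′, with capitals for matches on either strand to TATAAA, to TGACTCA, the binding motif of AP-1, and to TGACNNNGC, the core of the antioxidant response element bound by NRF2.
Sod1 (chr16:90220512-90220761): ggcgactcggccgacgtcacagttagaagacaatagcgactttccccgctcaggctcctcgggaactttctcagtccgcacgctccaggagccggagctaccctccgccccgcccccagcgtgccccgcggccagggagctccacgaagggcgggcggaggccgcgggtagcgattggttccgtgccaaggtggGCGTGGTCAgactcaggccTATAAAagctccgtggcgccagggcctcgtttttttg
Prdx1 (chr4:116685349-116685598): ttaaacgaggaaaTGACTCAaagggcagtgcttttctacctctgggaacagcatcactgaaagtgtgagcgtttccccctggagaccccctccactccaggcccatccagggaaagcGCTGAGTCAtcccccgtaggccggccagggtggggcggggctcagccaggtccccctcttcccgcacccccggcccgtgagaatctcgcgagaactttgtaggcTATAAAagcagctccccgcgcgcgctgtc
TATAAA ended 31 bases before the start of Sod1 and 23 bases before that of Prdx1. It was found in the windows of 3 of the 9 members with an entry, and in 12.4% of 32851 promoter windows of that length. Prdx3 was the other, with its match on the reverse strand and 233 bases before the start. A member was counted if any of its windows matched, so counts of members and shares of windows differ in unit. CCAAT, also searched and not marked, was found for 4 members, Sod1 among them, and in 33.8% of windows. TGACNNNGC was found for Sod1 and Prdx1 and in 10.2% of windows. TGACTCA was found for Prdx1 alone among the members, at 2 positions of which 1 lies within the match to TGACNNNGC, and in 4.46% of windows. A match describes letters in a window and not a bound site.

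The genes that work with the members were taken from 6 lists of 60 genes, of which 60 were in the table and 55 were expressed. Their highest liver was under 1.5 times the lowest in 46 of 55, beside the 71.6% of all expressed genes and the 85.6% of those of at least 50 FPKM. This held for 4 of 7 other family members with catalase and 7 of 10 thioredoxin genes. It held for 11 of 14 sources of superoxide and peroxide and 3 of 3 ferroptosis genes. The median SD of the partner genes was 0.16. The highest value was in liver 4 for 30 of 55 and the lowest in liver 3 for 25 of 55. Over all expressed genes these shares were 33.3% and 31.4%, and over genes of at least 50 FPKM 53.0% and 37.8%. The counts of partner genes were not repeated after rescaling.

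Of the other peroxide-removing enzymes, catalase, the peroxisomal enzyme encoded by Cat, was the only one at the level of the leading members, at 1347, 1344, 1545 and 1598 FPKM in livers 1 to 4. It was 0.734 ± 0.0781 times Gpx1 (SD, n = 4), lower than Gpx1 in each liver. Gpx3, the plasma glutathione peroxidase, was at 17.8, 35.2, 26.9 and 18.1 FPKM. Its range of 1.97-fold was wider than that of any member. Gpx7 and Gpx8, of the endoplasmic reticulum, had 3.16 ± 0.178 and 2.45 ± 0.804 FPKM and Gpx6 had 1.21 ± 0.921 FPKM (each SD, n = 4). Gpx2, an enzyme mainly of gut epithelium, was at 0.317, 0.410, 0.365 and 0.0552 FPKM, Prdx6b was at 0.114 FPKM or less, and Gpx5 was listed at 0.

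All 10 genes of the thioredoxin system were expressed. Txn1, the cytosolic thioredoxin that reduces Prdx1 and Prdx2, was at 163, 180, 142 and 174 FPKM in livers 1 to 4, lowest in liver 3 like Prdx1. Txn2, its mitochondrial counterpart that serves Prdx3, was at 141, 109, 153 and 160 FPKM, lowest in liver 2 like Prdx3 and Prdx5. The reductases Txnrd1 and Txnrd2 had 41.4 ± 3.02 and 21.8 ± 1.77 FPKM, and Srxn1, sulfiredoxin, which repairs overoxidised peroxiredoxins, had 18.1 ± 2.90 FPKM (each SD, n = 4). Txnip, which binds and inhibits thioredoxin, had 49.8 ± 4.59 FPKM (SD, n = 4).

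All 13 genes of glutathione and NADPH supply were expressed. All had a range under 1.5-fold, beside the 71.6% of all expressed genes and the 85.6% of genes of at least 50 FPKM. Gclc, the catalytic subunit of the first enzyme of glutathione synthesis, was at 87.3, 89.3, 60.7 and 89.99 FPKM, so that liver 3 stood apart from 3 nearly equal livers. Its modifier subunit Gclm had 62.3 ± 8.56 FPKM, and Gsr, which regenerates glutathione, had 20.04 ± 1.59 FPKM (each SD, n = 4). Nnt had 25.9 ± 4.19 FPKM (SD, n = 4), and the table does not show which exons these fragments came from.

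Of the genes of selenoprotein synthesis, 8 of 8 had a range under 1.5-fold, beside the same 71.6% and the 85.6% of genes of at least 50 FPKM. Sephs2, which makes the selenium donor and is itself a selenoprotein, had 510 ± 33.2 FPKM, and Eefsec, the elongation factor for selenocysteine, had 17.9 ± 1.88 FPKM (each SD, n = 4). Selenop (listed under its older symbol Sepp1), the selenium carrier that the liver secretes, had 3551 ± 386 FPKM (SD, n = 4) and was the only one of the 9 listed selenoprotein genes above Gpx1. Sephs2 and Gpx4 came next after Gpx1, and the others, Txnrd1, Gpx3, Txnrd2, Txnrd3 and Gpx2, were at 41.4 FPKM or less.

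Of 15 genes that form superoxide or peroxide, 14 were expressed. Cyp2e1, a microsomal cytochrome that leaks peroxide, was at 5236, 4387, 4618 and 7788 FPKM in livers 1 to 4, highest in liver 4 as were 8 members. Uox, the peroxisomal urate oxidase, had 1517 ± 191 FPKM (SD, n = 4). Cybb, the catalytic subunit of the phagocyte NADPH oxidase, had 5.54 ± 0.609 FPKM and Nox4 16.6 ± 2.91 FPKM (each SD, n = 4), and Dao was listed at 0. Among 4 ferroptosis genes, Acsl4, which makes oxidisable phospholipids, had 22.3 ± 0.693 FPKM (SD, n = 4), while Slc7a11, the cystine transporter, was at 0.0855 FPKM or less, a value of few fragments.

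**Figure D5:**
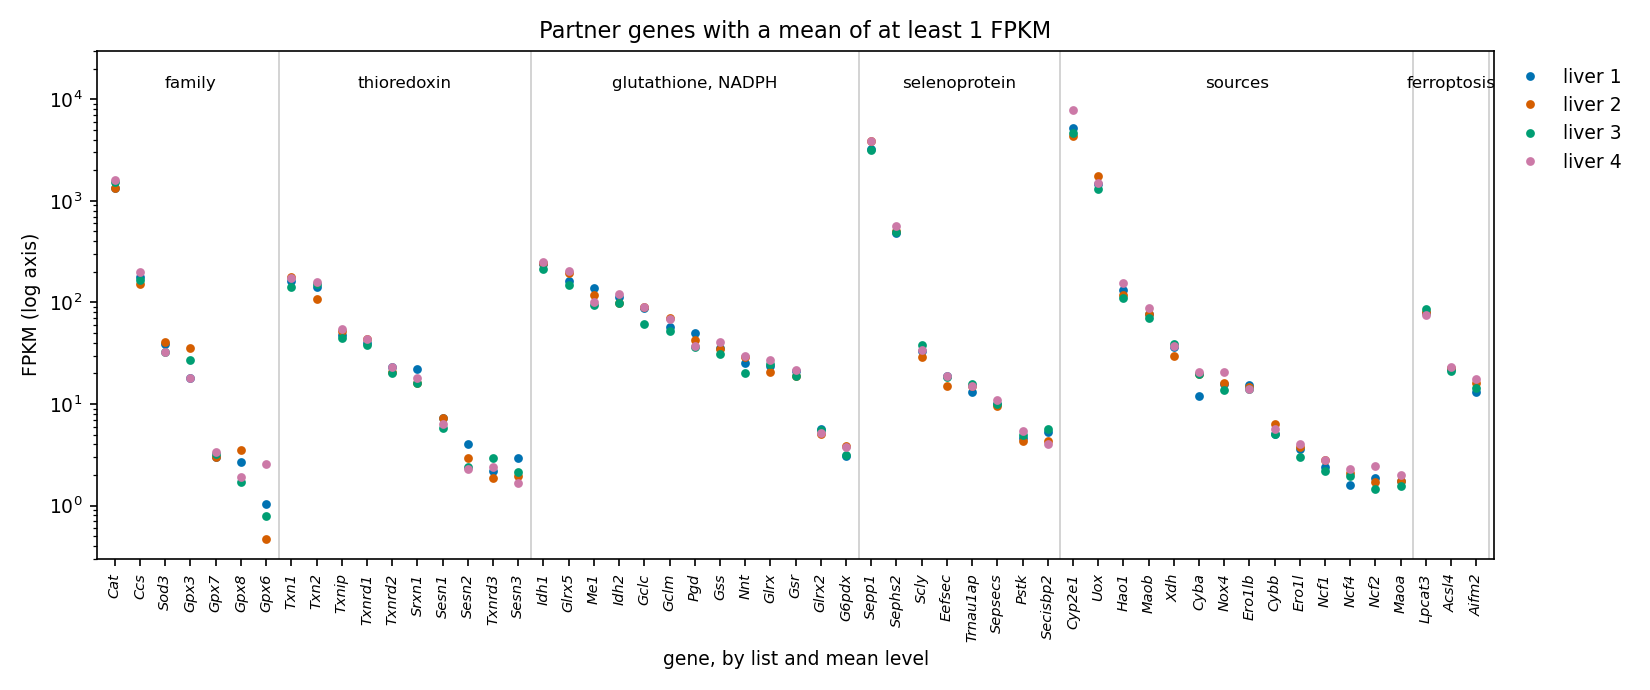
FPKM on a log axis for the 55 expressed partner genes, grouped by list and ordered by mean level, with 1 coloured point per liver. Cyp2e1, Sepp1, Uox and Cat are the plotted genes above 1000 FPKM on average, and the 4 livers lie close together for most genes.

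Among 6537 other genes that averaged 5 FPKM or more, the pattern most like that of Sod1, the member with the largest SD, was that of Ufc1 (chromosome 1, 171288564 to 171294982), a conjugating enzyme of the ubiquitin-like protein UFM1. Its deviations differed from those of Sod1 by a root mean square of 0.011 on the log2 scale over 4 livers. Vmp1 and Fbxl5 followed, at 0.013 and 0.016, and 33 genes lay within 0.05. For Prdx2, the member with the smallest SD, the nearest were Ankrd27, Cecr5 and Hadha, at 0.0060, 0.0072 and 0.0084, and 305 genes lay within 0.05. With 4 livers many unrelated genes come this close.

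Reads of several members may be shared with other loci. Among GENCODE transcripts, processed pseudogenes at least 95% identical over at least 200 bases were found for Sod1 (1), Gpx4 (2), Prdx1 (2) and Prdx2 (1), and 0 of these are rows of the table. Prdx2 shares exon bases with Junb and Rnaseh2a on the opposite strand and Prdx5 with Trmt112, which had a mean of 35.4 FPKM, and without stated strand the reads of such partners cannot be told apart. The row AV051173 has the same span as Prdx1, with a mean of 0.268 FPKM.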

How the data were processed

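The deposited table holds 1 value per gene and liver, taken to be FPKM computed by the authors, since the values are not whole numbers, sum to different totals, and carry identifiers of the form that Cufflinks writes. Per the submitters' processing notes, FastQC 0.10.1, Trim Galore 0.6.3, cutadapt, STAR 2.7.6a, Cufflinks 2.2.1 and the build mm10 were used, while roles, settings, annotation and strand are not given in the sources used here. Cufflinks can list an abundant gene at 0, so 0 was not read as absence. Coordinates are those deposited, with 1 added to each start. Columns were matched by sample description, with 0 left over.

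Values were analysed as log2(FPKM + 1) with Python 3.11.15, pandas 2.3.3 and numpy 2.4.6. Expressed genes averaged 1 FPKM or more. Depth was estimated from annotated genes with a single transcript, whose lowest values were taken to be 1 fragment, and is approximate. Only values inside a preset window were used, which bounds the estimate, and a clustering at 1 fragment was not tested. Neighbouring members were compared by exact sign-flip permutation tests with Benjamini-Hochberg adjustment over 9 pairs. Copies were searched with BLAST 2.17.0. The statistics were tested on simulated data. Alternatives were other scalings, pseudocounts (0.1 and 5), minimum levels (0.1 and 5 FPKM, or none) and leaving out each liver. The members and lists were chosen with earlier results of these data known. Named are the members, genes of the lists, and the 3 nearest patterns for the members of largest and smallest SD. Hba-a2, Hbb-bs and Hbb-bt did not match a row by these symbols. One gene of the lists is not reported here and was left out of their counts.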

Additional observations from a re-analysis of the deposited data

Results flagged for a closer look

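Dixon's ratio marks about 1 in 20 groups of 4 by chance. It was above the 95% critical value for the summed FPKM of all rows (0.853), because liver 4 was at 570681 FPKM and the others between 516816 and 524394 FPKM. Of the 55 expressed partner genes 3 were above it, beside 5.46% of all expressed genes. Gclc (0.924) was low in liver 3, at 60.7 FPKM against 87.3 to 89.99 FPKM. Cyba (0.915), a subunit of NADPH oxidases, was low in liver 1, at 12.05 FPKM against 19.7 to 20.6 FPKM. Eefsec (0.839) was low in liver 2, at 15.1 FPKM against 18.4 to 19.1 FPKM. Of the cell type markers, Apoa1 (0.870) was high in liver 4, at 15343 FPKM, and Sox9 (0.841) was low in liver 4, at 3.37 FPKM against 4.88 to 5.22 FPKM.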

How the results depend on the processing

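The order of the 10 members was the same under each rescaling and without each liver, and 0 members had a liver apart under any scaling or pseudocount tried. Scaling between livers moved the height of liver 4. The members' median there was 0.0801 with each liver rescaled to the same sum. In that case 4 members were highest in it, beside 15.6% of expressed genes and 23.4% of those of at least 50 FPKM. With genes of at least 50 FPKM at a median ratio of 1 the median was 0.0544, and 3 members were highest, beside 12.1% and 17.7%. That last rescaling, and all counts of highest and lowest livers, were chosen after seeing the data. With median ratios over expressed genes the members' median was 0.13, and 6 members were highest in liver 4, beside 23.3% and 36.9%. Leaving out 1 liver gave 9 to 10 members under 1.5-fold, beside 77.1% to 83.6% of genes averaging 1 FPKM or more in the remaining livers. It gave 8 to 9 pairs in order, a median SD from 0.13 to 0.18 and, in liver 3, a median from -0.15 to -0.07. The smallest p of the exact permutation test was then 0.25. The median of liver 1 ranged from -0.11 to 0.06 and that of liver 2 from -0.04 to 0.10, so neither has a stable sign. No paired analysis was possible because the design has 1 group, so no replicate number is shared across groups; the paired differences given are between genes within a liver. The unknown FPKM settings and the absent controls limit all values.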
